A study of Mus musculus with 2 samples.

Results

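The genes described are the beta-defensins Defb1, Defb3, Defb4, Defb6 and Defb14 and the cathelicidin gene Camp, measured in the dorsal skin of mice treated with imiquimod. They were taken by symbol, and all 6 were found among the 31053 genes of both count matrices. The libraries are droplet single-cell RNA libraries, 1 from Chrna5 knockout (KO) mice, which lack the alpha5 subunit of nicotinic acetylcholine receptors, and 1 from wild-type (WT) mice. Both groups were female C57BL/6 mice aged 6 to 8 weeks, and both received 62.5 mg of 5% imiquimod cream on the shaved back on 6 days, with the skin taken on day 7. Imiquimod, which activates Toll-like receptor signalling, brings on an inflammation that resembles psoriasis. The labels give 5 mice in an experimental group without saying how many entered a library, describe the KO line as backcrossed to C57BL/6N and each animal as genotyped, and name C57BL/6J for the dissociated skin. The fat was scraped off, the skin was digested with collagenase, and live cells were sorted. Skin that received only the cream base is not analysed here, so every value is from skin treated with imiquimod.

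Beta-defensins are small secreted peptides, held in shape by disulfide bonds between cysteines, that damage bacterial and fungal membranes and attract immune cells, in part through the chemokine receptor CCR6. In skin they are made by keratinocytes. Defb1 is classed as constitutive, while Defb3, Defb4 and Defb14 are classed as inducible, with interleukin-17, interleukin-22 and members of the interleukin-1 family among the inducers. Camp encodes the precursor of the only mouse cathelicidin, which is stored in neutrophil granules and is also made by keratinocytes, preadipocytes and mast cells, and which proteases cut into the active peptide.

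The KO library held 10886 barcodes and 123839924 unique molecular identifiers (UMIs, each standing for 1 captured RNA molecule), and the WT library 14557 barcodes and 147260653 UMIs. Cells with at least 3000 UMIs were used, 7940 in the KO and 8212 in the WT library, with medians of 8057.5 and 9209.5 UMIs. A gate on epithelial marker genes kept 3110 KO and 4169 WT epithelial-like cells, which were divided by further markers into 8 types. None of the 6 genes was used in a gate. Of these cells, 746 KO and 902 WT cells fitted no type and were counted only among all epithelial-like cells, and 435 KO and 592 WT cells lay near the cut between types. Barcodes under 3000 UMIs that carried epithelial markers were 1024 in the KO and 4898 in the WT library, and the libraries shared 49 barcode sequences, of which 1 was epithelial-like in both. The targeted gene, Chrna5, had 6 UMIs in KO and 11 UMIs in WT cells, too few to check the genotype. Levels are given in CPM, UMIs of the gene per 1000000 UMIs of the same group of cells. With 1 library per genotype there is no replicate, so no difference was tested: every interval is a 95% counting interval and leaves out the variation between mice, and genotype and library cannot be told apart.

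The beta-defensin genes are neighbours on mouse chromosome 8, and their coding sequences show how closely related they are. On the plus strand of mm10, Defb14 lies at chr8:19194357-19195212, Defb4 at chr8:19198706-19201545, Defb6 at chr8:19225478-19228209, Defb3 at chr8:19293360-19295291 and Defb1 at chr8:21776599-21795185, each with 2 exons. Defb14 and Defb4 are 3.493 kb apart, Defb4 and Defb6 23.932 kb, Defb6 and Defb3 65.15 kb, and Defb3 and Defb1 2481.3 kb. Camp lies apart, on the minus strand at chr9:109847379-109849617, with 4 exons, 54.84 Mb from Chrna5 on the same chromosome. The coding sequences of the GENCODE M21 transcripts read as follows, 5′ to 3′, with the cysteine codons TGT and TGC in capitals.
Defb6: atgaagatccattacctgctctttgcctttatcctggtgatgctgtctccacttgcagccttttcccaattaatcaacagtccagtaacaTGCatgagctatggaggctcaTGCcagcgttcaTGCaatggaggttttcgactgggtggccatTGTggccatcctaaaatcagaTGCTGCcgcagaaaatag
Defb4: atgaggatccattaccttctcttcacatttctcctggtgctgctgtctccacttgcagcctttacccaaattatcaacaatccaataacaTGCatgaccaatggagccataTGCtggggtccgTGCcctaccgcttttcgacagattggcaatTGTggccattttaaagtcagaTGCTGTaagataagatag
Defb3: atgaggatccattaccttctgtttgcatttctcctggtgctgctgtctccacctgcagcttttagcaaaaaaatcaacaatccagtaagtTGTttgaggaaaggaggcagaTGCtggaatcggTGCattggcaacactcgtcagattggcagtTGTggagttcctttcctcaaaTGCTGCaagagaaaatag
Defb14: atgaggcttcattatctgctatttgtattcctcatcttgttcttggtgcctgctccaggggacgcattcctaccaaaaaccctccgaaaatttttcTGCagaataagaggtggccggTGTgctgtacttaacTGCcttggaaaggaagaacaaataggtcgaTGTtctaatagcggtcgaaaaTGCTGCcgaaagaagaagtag
Defb1: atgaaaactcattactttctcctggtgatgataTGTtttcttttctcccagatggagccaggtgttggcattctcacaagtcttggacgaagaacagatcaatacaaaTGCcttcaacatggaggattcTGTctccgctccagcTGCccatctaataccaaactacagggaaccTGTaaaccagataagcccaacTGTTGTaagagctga
Defb3, Defb4, Defb6 and Defb14 have 6 cysteine codons each, and Defb1 has 7. Defb4 and Defb6 matched at 78.6% of their aligned coding bases, Defb3 and Defb4 at 76.0%, and Defb3 and Defb6 at 71.9%, while Defb1 and Defb14 matched the others at 59.9% to 68.3%. The longest stretch without a mismatch was 33 bases between the Defb3 and Defb4 transcripts and 26 bases between those of Defb4 and Defb6, and Defb4 shared 72 bases with Defb8, a beta-defensin gene outside the set. The treatment of reads that fit several of these genes in the deposited counting is not stated, so their levels are uncertain to that extent. In the annotation used here Defb14 ends at its stop codon, with 0 bases after it, so reads from beyond that point would not be counted for it.

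The beta-defensin UMIs lay in epithelial-like cells, and Camp UMIs lay outside them. Between 96.9% (Defb14) and 99.2% (Defb3) of each beta-defensin's KO UMIs and between 96.5% (Defb6) and 98.6% (Defb4) of its WT UMIs were in epithelial-like cells, against 3.33% of the KO and 7.50% of the WT UMIs of Camp. Within the epithelium, Defb1 and Defb14 were highest in both libraries in the upper follicle-like type, whose markers include Krt79, Cst6 and Klk10, and Defb6 was high there and in suprabasal-like cells rich in Krt79. The 10 genes that most set this type apart held 2 of its gate markers in each library. Klk6, Klk7, Sprr1a and Crct1, which are not gate markers, were among the 10 in both. The name is thus that of the gate, and whether its cells lay in the follicle was not tested. Defb3 and Defb4 were highest in suprabasal-like cells with little Krt79 in KO and in the upper follicle-like type in WT. That WT order rested on 1 cell for each gene: without the cell with most UMIs, WT upper follicle-like and Krt79-poor suprabasal-like cells had 30.6 CPM and 31.4 CPM of Defb3, and 9.39 CPM and 15.1 CPM of Defb4. The KO order rested on few cells too: without the 10 highest cells KO levels of Defb3 were 2.33 CPM in upper follicle-like, 1.94 CPM in Krt79-rich and 0.742 CPM in Krt79-poor suprabasal-like cells, and the KO levels of Defb4 in these types came from 7, 9 and 9 UMIs.

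**Figure D1:**
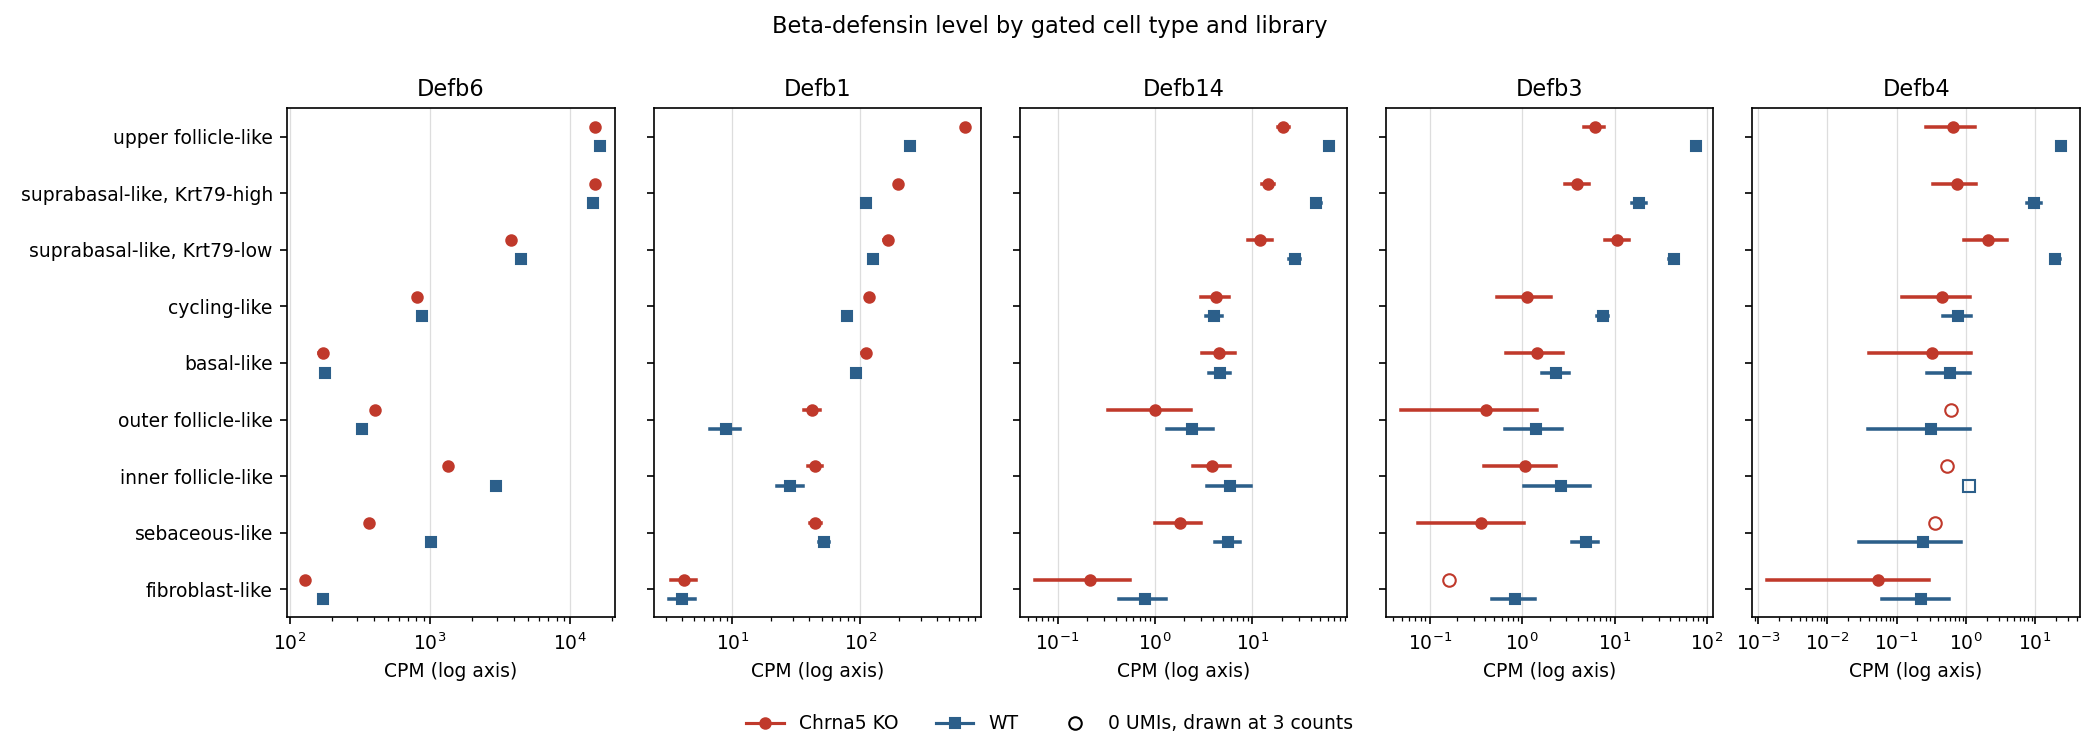
Level of each beta-defensin in CPM (horizontal log axis) in 8 epithelial types and in fibroblast-like cells (rows), for the Chrna5 KO (red circles) and the WT library (blue squares), with 95% Poisson counting intervals; open symbols are groups with 0 UMIs, drawn at 3 counts. Defb6 ran from 172 to 14982 CPM over KO types and from 177 to 16204 CPM over WT types, and Defb3 and Defb4 lay to the left in KO for each type with at least 20 UMIs.

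Defb6 was the beta-defensin with the most UMIs, and with every cell counted its ratio of KO over WT lay between 0.842 and 1.24 in 6 of the 8 types. Without the 10 cells of the type with most Defb6 in each library, these 6 ratios ran from 0.685 to 1.06. The lowest was in Krt79-poor suprabasal-like cells, at 0.685 (0.670 to 0.701), and basal-like cells had 0.740 (0.675 to 0.812). With every cell the basal-like ratio was 0.971 (0.903 to 1.04), and no Defb6 expression is read from these cells, as given below. Leaving out 10 cells per library takes a larger share of the smaller group. Krt79-poor suprabasal-like cells were 124 in KO and 221 in WT, and basal-like cells 303 and 766. The part of this in the change of the ratios was not tested. Defb6 had 437562 UMIs in KO and 434894 UMIs in WT epithelial-like cells. In the upper follicle-like type Defb6 stood at 14982 CPM in KO and 16204 CPM in WT cells, a ratio of 0.925 (0.918 to 0.931). That level equals 1.50% of all UMIs of these cells in KO and 1.62% in WT. In suprabasal-like cells rich in Krt79 it stood at 14913 CPM in KO and 14565 CPM in WT, a ratio of 1.02 (1.02 to 1.03), and in those with little Krt79 at 3757 CPM in KO and 4462 CPM in WT, a ratio of 0.842 (0.826 to 0.858). Cycling-like cells held 814 CPM in KO and 881 CPM in WT. The upper follicle ratio changed side with the processing, to 1.11 when each cell was thinned to the same depth, so no direction is given for it.

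Defb6 was lower in KO than in WT in the inner follicle-like and sebaceous-like types. Inner follicle-like cells, gated on markers such as Cldn3 and Krt75, held 1346 CPM in KO and 2947 CPM in WT, a 2.19-fold lower level in KO, and sebaceous-like cells, gated on markers such as Scd1 and Elovl3, held 367 CPM in KO and 1013 CPM in WT, a 2.76-fold lower level. These averages came from few cells: the 10 cells with most Defb6 held 39.0% of the KO and 65.7% of the WT UMIs in the inner follicle-like type, and 71.3% and 54.0% in the sebaceous-like type. Without those cells the ratio was 0.693 (0.660 to 0.727) in inner follicle-like and 0.229 (0.213 to 0.247) in sebaceous-like cells.

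Over all epithelial-like cells Defb6 was higher in KO, at 5788.5 CPM in KO and 4308.5 CPM in WT, a ratio of 1.34 (1.34 to 1.35), while the make-up of the epithelium differed between the libraries. The Krt79-rich suprabasal-like type was 12.0% of the KO and 6.40% of the WT epithelial-like cells, and the upper follicle-like type 11.7% and 9.88%. Basal-like cells, with little Defb6, were 9.74% in KO and 18.4% in WT, and cycling-like cells 7.04% and 14.8%. These are shares of cells, while the level over all epithelial-like cells weighs each type by its UMIs. When each type was given the same weight in both libraries the Defb6 ratio was 0.906, on the other side of 1. That value leaves out the cells that fitted no type, 24.0% of the KO and 21.6% of the WT epithelial-like cells.

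Defb6 UMIs were also spread over cells that should not make it. Fibroblast-like cells held 128 CPM of Defb6 in KO and 173 CPM in WT, and monocyte-like and macrophage-like cells 106 CPM and 125 CPM. After every cell was thinned to 3000 UMIs, 32.5% of KO and 41.8% of WT fibroblast-like cells had a Defb6 UMI (56.0% and 70.6% before thinning, at median depths of 6655 and 7463 UMIs). Basal-like cells had 172 CPM in KO and 177 CPM in WT and a thinned share of 25.4% and 38.3% (64.4% and 80.8% before thinning, at 18823 and 12271 UMIs), at or below the fibroblast share, so no Defb6 expression is read from them. Outer follicle-like cells, at 36.4% in KO and 41.6% in WT (60.8% and 73.6% before thinning, at 6917 and 8068.5 UMIs), and the KO sebaceous-like cells, at 32.3% (78.4% before thinning, at 21865 UMIs), lay close to the fibroblast share of their library. The thinned share in the upper follicle-like type was 96.4% in KO and 96.1% in WT (99.7% and 99.5% before thinning, at 20956 and 24672 UMIs).

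Defb1 was higher in KO than in WT. It had 202 CPM in KO and 98.6 CPM in WT epithelial-like cells, a ratio of 2.05 (2.00 to 2.10), and its ratio was above 1 in 7 of the 8 types. The level was highest in the upper follicle-like type, at 660 CPM in KO and 245 CPM in WT, a ratio of 2.70 (2.58 to 2.82). In Krt79-rich suprabasal-like cells it was 199 CPM in KO and 112 CPM in WT, and in suprabasal-like cells with little Krt79 166 CPM in KO and 126 CPM in WT. The smallest ratios above 1 were in basal-like cells, at 111 CPM in KO and 92.2 CPM in WT, a ratio of 1.21 (1.10 to 1.33).

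The share of cells with a Defb1 UMI was higher in KO as well. After thinning, 24.8% of KO and 14.8% of WT epithelial-like cells had a Defb1 UMI (53.7% and 40.1% before thinning, at median depths of 18732 and 17062 UMIs), against 1.54% and 1.11% of fibroblast-like cells (2.81% and 2.89% before thinning). Among upper follicle-like cells the thinned share was 59.0% in KO and 35.0% in WT (90.4% and 73.3% before thinning). The ratio over all epithelial-like cells was 2.03 without the 10 cells with most Defb1 in each library. In outer follicle-like cells, gated on markers such as Lhx2 and Postn, Defb1 had 41.9 CPM in KO and 8.89 CPM in WT, with a thinned share of 5.10% in KO and of 1.57% in WT (10.9% and 5.59% before thinning), the WT share close to that of WT fibroblast-like cells. In inner follicle-like cells it had 44.6 CPM in KO and 28.4 CPM in WT, and the ratio of 1.57 was 2.93 without the 10 highest cells of each library. In sebaceous-like cells the level was 44.5 CPM in KO and 52.4 CPM in WT, a ratio of 0.851, but the thinned share ran the other way, 13.1% in KO and 11.9% in WT (31.6% and 37.2% before thinning), so no order is read from it.

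Of the other 37 beta-defensin genes in the matrices, Defb2 was the only one with at least 20 UMIs in a library, and the other 36 had at most 11 UMIs, 20 of them with 0 in both. Defb2, which lies 44.74 kb downstream of Defb1, had 5.86 CPM in KO and 2.67 CPM in WT epithelial-like cells, a ratio of 2.19 (1.88 to 2.56). Its ratio was above 1 in each of the 6 types in which it had at least 20 UMIs, with the interval above 1 in 4 of them. The interval held 1 in inner follicle-like cells, at 1.52 (0.533 to 5.32), and in sebaceous-like cells, at 1.30 (0.812 to 2.10).

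Defb14, the mouse counterpart of an inducible human keratinocyte beta-defensin, was lower in KO over all epithelial-like cells and in the suprabasal-like and upper follicle-like types. It had 8.73 CPM in KO and 17.2 CPM in WT epithelial-like cells, a ratio of 0.508 (0.464 to 0.556). In the upper follicle-like type it had 20.9 CPM in KO and 61.8 CPM in WT, a 2.96-fold lower level, and in Krt79-rich suprabasal-like cells 14.6 CPM in KO and 45.6 CPM in WT, a 3.13-fold lower level. In those with little Krt79 it had 12.1 CPM in KO and 27.3 CPM in WT, and the ratio of 0.444 was 0.142 without the 10 highest cells of each library, which held 82.7% of the KO and 43.1% of the WT UMIs there. These 10 cells were a larger share of the 124 KO than of the 221 WT cells. In sebaceous-like cells Defb14 had 15 UMIs in KO and 47 UMIs in WT, of which 0 and 3 remained without the 10 highest cells of each library. It had, in inner follicle-like cells, 22 UMIs in KO and 16 in WT, and in outer follicle-like cells 5 in KO and 15 in WT. In basal-like cells the ratio was 0.978 (0.607 to 1.54), from 28 KO and 70 WT UMIs, and in cycling-like cells 1.05 (0.702 to 1.53), from 38 KO and 105 WT UMIs, so a difference was not detectable there at this depth. After thinning, 2.09% of KO and 2.76% of WT epithelial-like cells had a UMI (10.5% and 12.6% before thinning), against 0.0750% and 0.266% of fibroblast-like cells (0.150% and 0.622%). The thinned level, in which each cell weighs the same, had a ratio of 0.707 over all epithelial-like cells and 0.438 in the upper follicle-like type.

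Defb3 and Defb4, which are classed as inducible and flank Defb6, were the members that stood lowest in KO relative to WT. Defb3 had 236 UMIs, 3.12 CPM, in KO and 1863 UMIs, 18.5 CPM, in WT epithelial-like cells, a 5.91-fold lower level in KO with a ratio of 0.169 (0.147 to 0.194). With doublets and very deep cells removed it was 3.68-fold lower, from 203 KO and 995 WT UMIs. In suprabasal-like cells with little Krt79 it had 10.7 CPM in KO and 43.7 CPM in WT, and in those rich in Krt79 3.95 CPM in KO and 18.5 CPM in WT. The KO level of the Krt79-poor cells came from few cells: without the 10 highest of each library it was 0.742 CPM in KO, from 3 UMIs, and 18.6 CPM in WT. In cycling-like cells it had 1.12 CPM in KO and 7.42 CPM in WT, and in sebaceous-like cells 0.359 CPM in KO, from 3 UMIs, and 4.89 CPM in WT. Basal-like cells had 9 KO and 35 WT UMIs, with a ratio of 0.629 (0.266 to 1.33), outer follicle-like cells 2 and 9 UMIs, and inner follicle-like cells 6 and 7.

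Defb4 had 35 UMIs, 0.463 CPM, in KO and 553 UMIs, 5.48 CPM, in WT epithelial-like cells, an 11.8-fold lower level in KO with a ratio of 0.0845 (0.0583 to 0.119). In suprabasal-like cells with little Krt79 it had 9 KO and 158 WT UMIs, in those rich in Krt79 9 KO and 73 WT UMIs, and in the upper follicle-like type 7 KO and 276 WT UMIs. In cycling-like cells, with 4 KO and 20 WT UMIs, the ratio was 0.578 (0.144 to 1.73). Basal-like cells had 2 KO and 9 WT UMIs, outer follicle-like and sebaceous-like cells 0 KO and 2 WT UMIs each, and inner follicle-like cells 0 in both libraries.

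A few WT cells carried much of Defb3 and Defb4. One upper follicle-like WT cell held 522 Defb3 UMIs, 28.0% of all in the WT epithelium, and another held 169 Defb4 UMIs, 30.6% of all. The first cell had 2 Defb4 UMIs and the second had 0 Defb3 UMIs, so the peaks lay in different cells. Both cells had little Krt79 for their type, with 7 Krt79 UMIs among 63215 UMIs in the first and 1 among 54601 in the second. The WT upper follicle-like type as a whole held 5157 CPM of Krt79. In KO the highest cell for Defb3 had 18 UMIs and the highest cell for Defb4 had 3 UMIs. In the upper follicle-like type Defb3 was 12.5-fold lower in KO, at 6.10 CPM in KO and 76.0 CPM in WT, with every cell and 6.22-fold lower without the highest cell of each library. It was 3.86-fold lower with doublets and very deep cells removed, from 60 KO and 275 WT UMIs, and 7.43-fold lower when thinned. In the same type Defb4 was 36.7-fold lower with every cell and 25.0-fold lower without that cell. Over all epithelial-like cells, without the 10 highest cells of each library, the ratio was 0.215 (0.180 to 0.255) for Defb3 and 0.148 (0.0872 to 0.239) for Defb4.

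The share of cells with a UMI of either gene was lower in KO as well, with a smaller gap than in the level. Before thinning, 4.08% of KO and 8.59% of WT epithelial-like cells had a Defb3 UMI, and 0.932% and 2.06% a Defb4 UMI. After thinning these shares were 0.965% (exact interval 0.652% to 1.37%) in KO and 1.94% (1.55% to 2.41%) in WT for Defb3, and 0.161% (0.0522% to 0.375%) in KO and 0.480% (0.293% to 0.740%) in WT for Defb4. Fibroblast-like cells had a thinned Defb3 share of 0 of 2668 cells in KO, which allows up to 0.112%, and of 0.178% in WT, and a Defb4 share of 0.0375% in KO and 0.0888% in WT. The KO share of Defb4 in the epithelium rests on 5 cells, and its interval overlaps that of the KO fibroblast share (0.000949% to 0.209%). In Krt79-rich suprabasal-like cells the thinned Defb3 share, 1.88% in KO and 1.12% in WT, ran against the level (8.58% and 17.2% before thinning), so no order of shares is read there. With each cell thinned, the ratio over epithelial-like cells was 0.326 for Defb3 and 0.181 for Defb4.

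**Figure D2:**
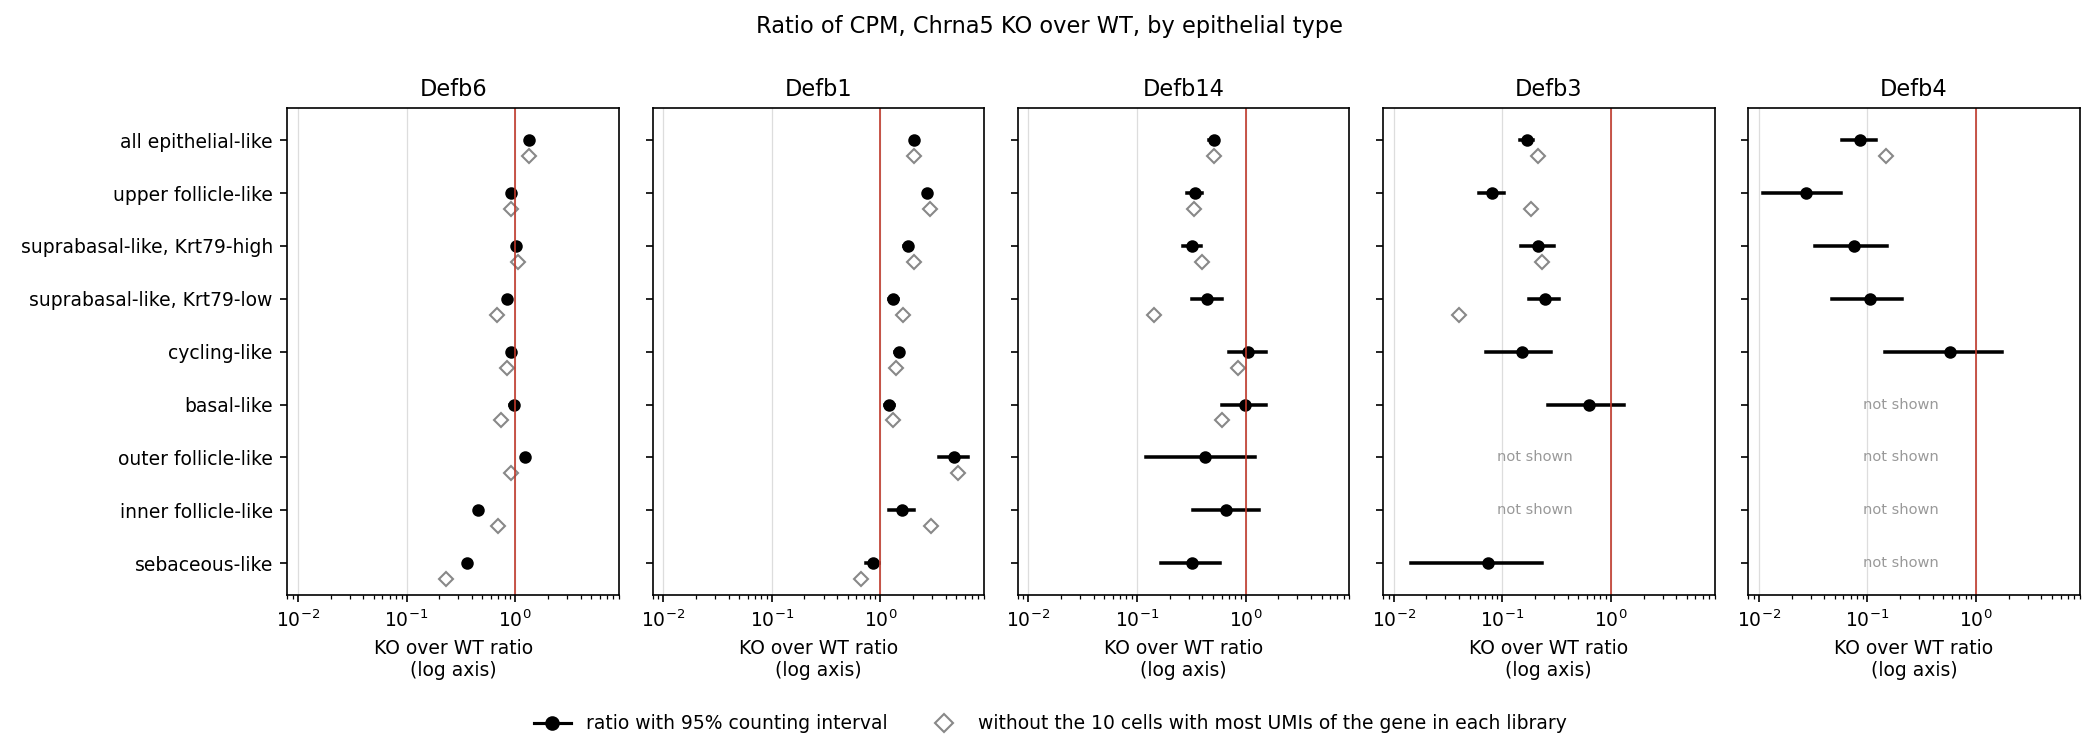
Ratio of CPM, KO over WT (horizontal log axis), for all epithelial-like cells and 8 types (rows), with 95% counting intervals; open diamonds leave out the 10 cells with most UMIs of the gene in each library where at least 20 UMIs remained, and types with under 20 UMIs are not shown. With every cell counted, Defb1 lay right of 1 in 7 types, and Defb6 between 0.842 and 1.24 except in inner follicle-like (0.457) and sebaceous-like cells (0.362). Defb3 moved from 0.0803 to 0.184 in the upper follicle-like type when the highest cells were left out.

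Set against all genes, Defb3, Defb4 and Defb1 lay past a 2-fold ratio over epithelial-like cells. Of the 5 beta-defensins, 2 were at least 2-fold lower in KO, against 4.36% of the 15424 genes with at least 20 UMIs, and 1 was at least 2-fold higher, against 7.10% of them. These counts changed with the processing: the Defb1 ratio of 2.05 was under 2-fold on a median-ratio scale (1.95) and with equal weight per type (1.86), and Defb14, at 0.508, was past 2-fold lower in the same alternatives (0.484 and 0.401). The median log2 ratio of those genes was 0.08. A lower ratio than that of Defb4 was found in 0.259% of genes, than that of Defb3 in 0.538% and than that of Defb14 in 4.59%, while 6.47% had a higher ratio than Defb1. No rank is given for Defb6, whose ratio changed side with the weights of the types. In the upper follicle-like type 3 of the 5, Defb3, Defb4 and Defb14, were at least 2-fold lower, against 4.78% of 11203 genes, and 1, Defb1, was at least 2-fold higher, against 6.35%.

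**Figure D3:**
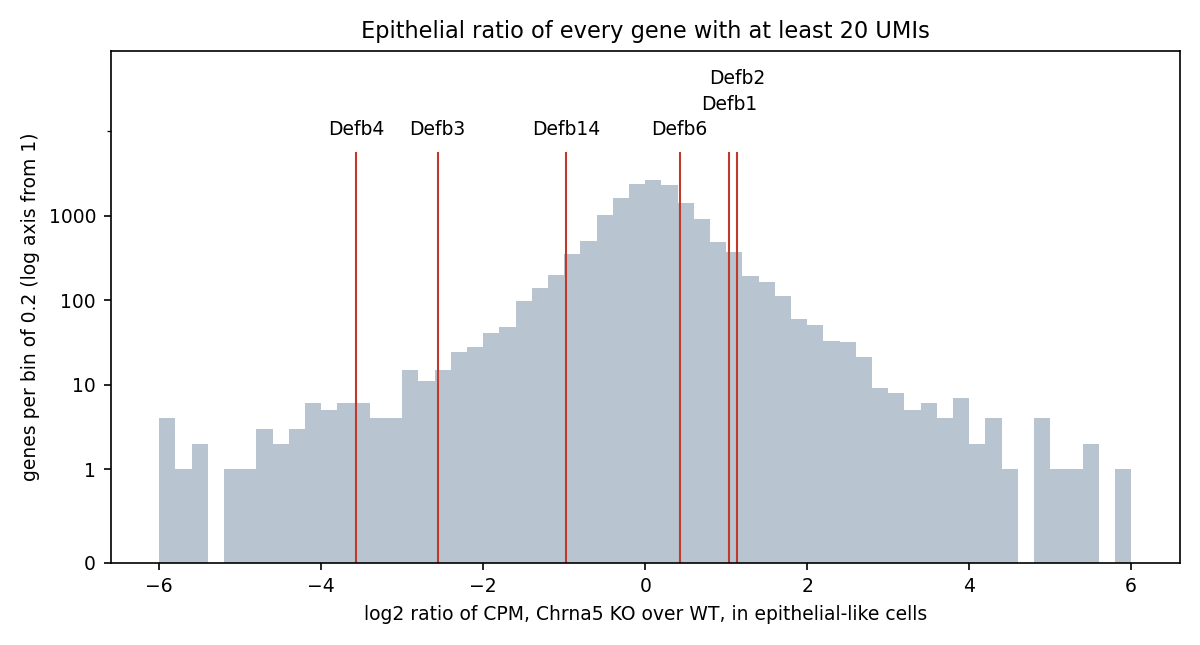
Number of genes (vertical axis, logarithmic from 1) by log2 ratio of CPM, KO over WT, in epithelial-like cells, for the 15413 genes with at least 20 UMIs in all and at least 1 in each library, with values beyond 6 drawn in the last bin. Red lines mark Defb4 at -3.56, Defb3 at -2.56, Defb14 at -0.98, Defb6 at 0.43, Defb1 at 1.03 and Defb2 at 1.13.

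The genes also differed in how they followed Krt79, the keratin of the upper follicle and sebaceous duct. Epithelial-like cells were sorted by their Krt79 UMIs per 10000. Defb6 increased along this scale in both libraries: KO cells had 706.8 CPM below 1, 1269 CPM at 1 to 3, 1634 CPM at 3 to 10, 4196 CPM at 10 to 30 and 19086 CPM above 30, and WT cells had 832.5, 1683, 4076.5, 5268.5 and 18417 CPM in the same ranges. Cells at 1 to 3 and at 3 to 10 were deeper in KO, with medians of 12898 and 19429 UMIs, than in WT, with 8325 and 8999 UMIs, and the part of depth in the ratios of these ranges was not tested. Defb1 was close in both libraries where Krt79 was below 1, with 85.3 CPM in KO and 79.9 CPM in WT, a ratio of 1.07 (1.02 to 1.12). In the 3 middle ranges its ratio was 2.56, 2.59 and 2.80, and above 30 it was 1.80, with 444 CPM in KO and 247 CPM in WT. Defb14 reached 18.1 CPM in KO and 57.5 CPM in WT above 30. Defb4 in WT stayed between 4.20 and 6.12 CPM over the 5 ranges (2.55 CPM below 1 without its highest cell), and its KO level was between 0.0912 and 0.827 CPM, from 35 UMIs in all.

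**Figure D4:**
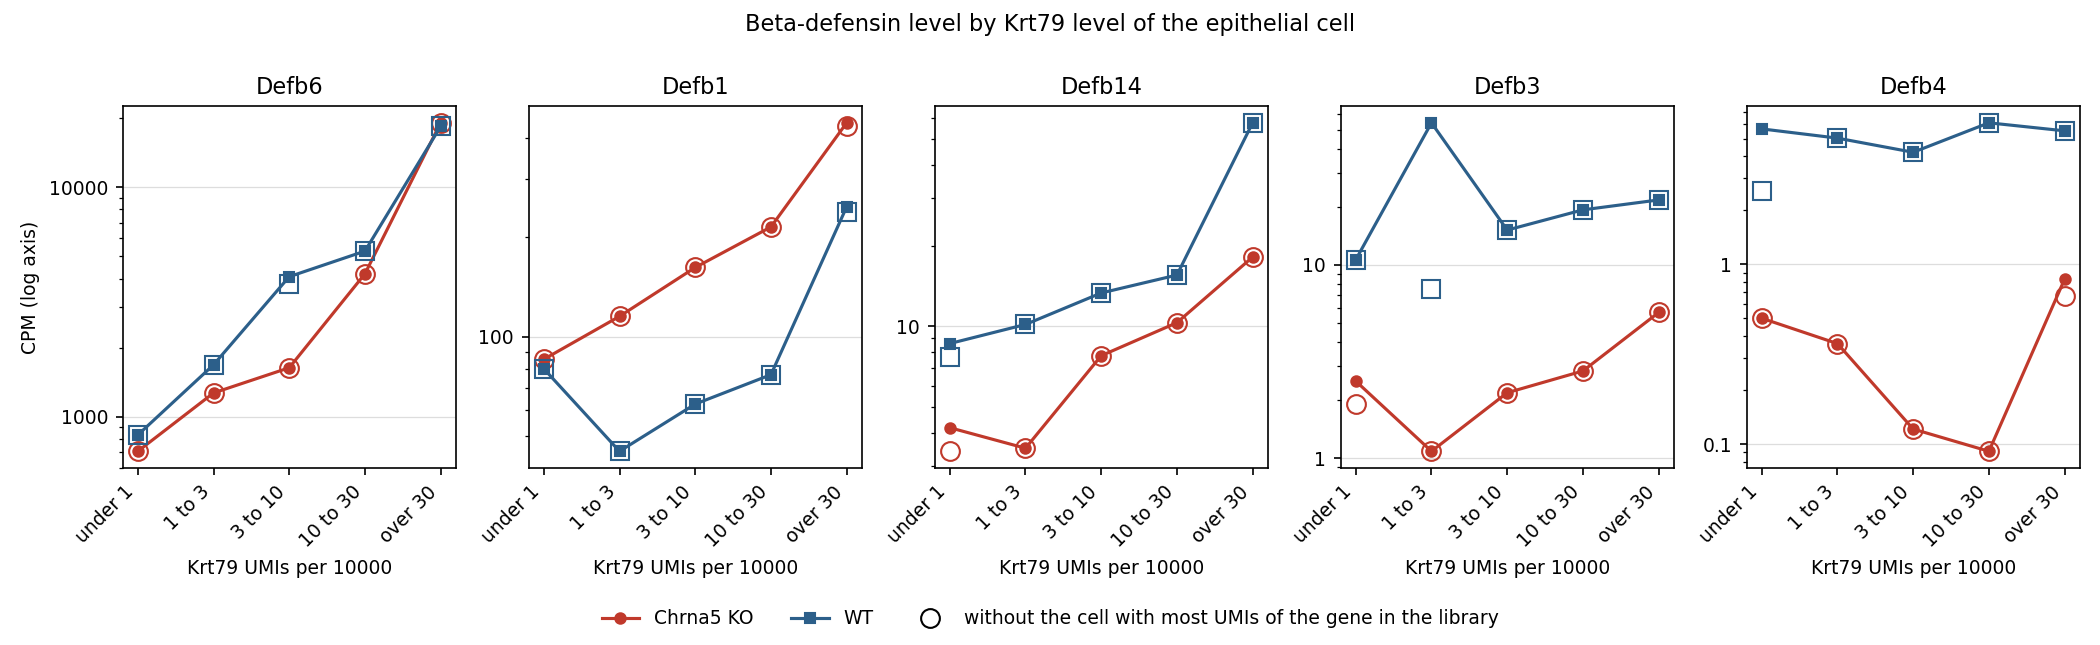
Level of each beta-defensin in CPM (vertical log axis) in epithelial-like cells ordered by Krt79 UMIs per 10000 (horizontal), for KO (red circles) and WT (blue squares); larger open symbols leave out the cell with most UMIs of the gene in each library. The WT peak of Defb3 at 1 to 3, 54.3 CPM, stood at 7.50 CPM without 1 cell.

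Over the 8 types in both libraries, 16 points, the pattern of each gene was compared with that of 11438 genes by the Pearson correlation of log2(CPM + 10), as a description, since the points of a library share its depth and gates. Defb6 was most like Pdzk1ip1 (r = 0.95), Myo18a, Gdpd3, Ctnnbip1 and the skin protease gene Klk5. Defb1 was most like the transcription factor gene Sox7 (r = 0.93), the glycerol channel gene Aqp3, Bicdl1, Kdm7a and Malt1; Aqp3 is itself a marker of the upper follicle gate. Defb14 was most like the cytokine gene Il1a (r = 0.98), Slc28a3, Cnfn, E330009J07Rik and Sdr9c7. Defb3 and Defb4 were most like each other (r = 0.97). Defb3 was next most like Klk13, Slc28a3, Il1f6 and Il23a, and Defb4 next most like the late cornified envelope gene Lce3e, Klk13, Il23a and Slc28a3. Without the 10 cells with most UMIs of the gene in each library, 4 of the 5 genes named for Defb1 and Defb14 and 3 of the 5 for Defb6 and Defb3 were still among the first 5, but 0 of the 5 for Defb4. Defb4 was then not among the first 5 for Defb3, nor Defb3 among those for Defb4, so their place as most alike rested on few cells. Defb4 was above the added 10 CPM only in WT upper follicle-like and WT Krt79-poor suprabasal-like cells.

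The stretch before the start of Defb6 and that of Defb3 are shown because these neighbours share much of this sequence. Its part in the ratio of either gene was not tested. Of the 6 genes, 3 (Defb6, Defb3 and Camp) had an entry in the RefSeq promoter table of GRCm38.p6. The 250 bases before the start, chr8:19225228-19225477 for Defb6 and chr8:19293111-19293360 for Defb3, both on the plus strand, are given 5′ to 3′, with 3 motifs in capitals where a search of both strands found them: the octamer ATTTGCAT, the TATA-like TATATAA and an NF-kB match.
Defb6: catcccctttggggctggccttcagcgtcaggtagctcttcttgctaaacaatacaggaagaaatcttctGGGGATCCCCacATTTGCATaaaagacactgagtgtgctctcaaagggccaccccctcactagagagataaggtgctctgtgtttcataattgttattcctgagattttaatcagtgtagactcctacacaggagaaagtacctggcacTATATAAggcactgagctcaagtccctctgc
Defb3: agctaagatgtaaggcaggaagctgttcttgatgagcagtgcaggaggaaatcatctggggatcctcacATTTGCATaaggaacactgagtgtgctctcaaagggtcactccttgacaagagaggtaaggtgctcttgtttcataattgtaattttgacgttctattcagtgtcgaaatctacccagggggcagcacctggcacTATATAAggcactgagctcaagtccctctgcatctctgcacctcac
These stretches matched at 192 of 235 aligned bases (81.7%), with a longest shared run of 40 bases. The octamer stood 168 bases before the start in Defb6 and 181 bases in Defb3, and is found in 1.60% of the 32851 promoters of the table searched in the same window, while TATATAA stood at 31 and 46 bases and is found in 3.04%. The NF-kB motif, searched as GGGRNNYYCC (R is A or G, Y is C or T), had 1 match in Defb6, at 180 bases, and 0 in Defb3, and is found in 7.25% of promoters. At the same place before the octamer Defb3 reads ggggatcctc, which differs from the Defb6 match by 1 base. The AP-1 motif TGANTCA, the STAT motif TTCNNNGAA and the C/EBP motif TTGCNNCAA were not found in either window, and they are in 6.75%, 7.02% and 1.74% of promoters.

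Camp was found in few cells, most of them outside the epithelium, and at a lower level in KO than in WT. All cells used held 60 Camp UMIs in KO and 160 in WT, 0.506 CPM and 1.16 CPM, a ratio of 0.435 (0.318 to 0.589). Over the same cells 3.45% of 17004 genes were at least 2-fold lower in KO and 11.2% at least 2-fold higher. Epithelial-like cells held 2 UMIs in KO and 12 in WT, with a ratio of 0.223 (0.0242 to 1.00), and each was alone in its cell. Fibroblast-like cells held 30 UMIs in KO and 70 in WT, 1.61 CPM in KO and 3.92 CPM in WT, and the 18 KO and 10 WT adipocyte-like cells, gated on markers such as Adipoq, held 4 and 28 UMIs, 11.1 CPM in KO and 146 CPM in WT. Cells in no gate held 24 UMIs in KO and 43 in WT, and those of them with a Camp UMI, 21 in each library, had median depths of 60296 and 30680 UMIs, against 5916.5 and 4781 UMIs for all cells in no gate.

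Single cells weigh heavily in Camp as well. One fibroblast-like cell held 10 of the KO UMIs, another held 20 of the WT UMIs, and 1 WT adipocyte-like cell held 19. Cells with at least 2 Camp UMIs were 7 in KO, of which 5 were fibroblast-like, and 21 in WT, of which 9 were fibroblast-like and 3 adipocyte-like, and 0 were epithelial-like in either library. No cell passed the neutrophil gate in either library: over all cells used, the neutrophil granule gene Ngp had 7 UMIs in KO and 4 in WT, Ltf 1 and 2, and the surface gene Ly6g 0 and 2. Fibroblast-like cells were 33.6% of the KO and 27.4% of the WT cells used, adipocyte-like cells 0.227% and 0.122%, and cells in no gate 12.9% and 7.31%. Within the fibroblast-like gate the ratio was 0.410 (0.258 to 0.637), and among cells in no gate 0.212 (0.123 to 0.357). Within the adipocyte-like gate it was 0.0762 (0.0194 to 0.218), from 4 KO and 28 WT UMIs, with 19 of the WT UMIs in 1 cell. The part of cell make-up and of single cells in the lower Camp level was not tested. The labels say that fat was scraped off before digestion.

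**Figure D5:**
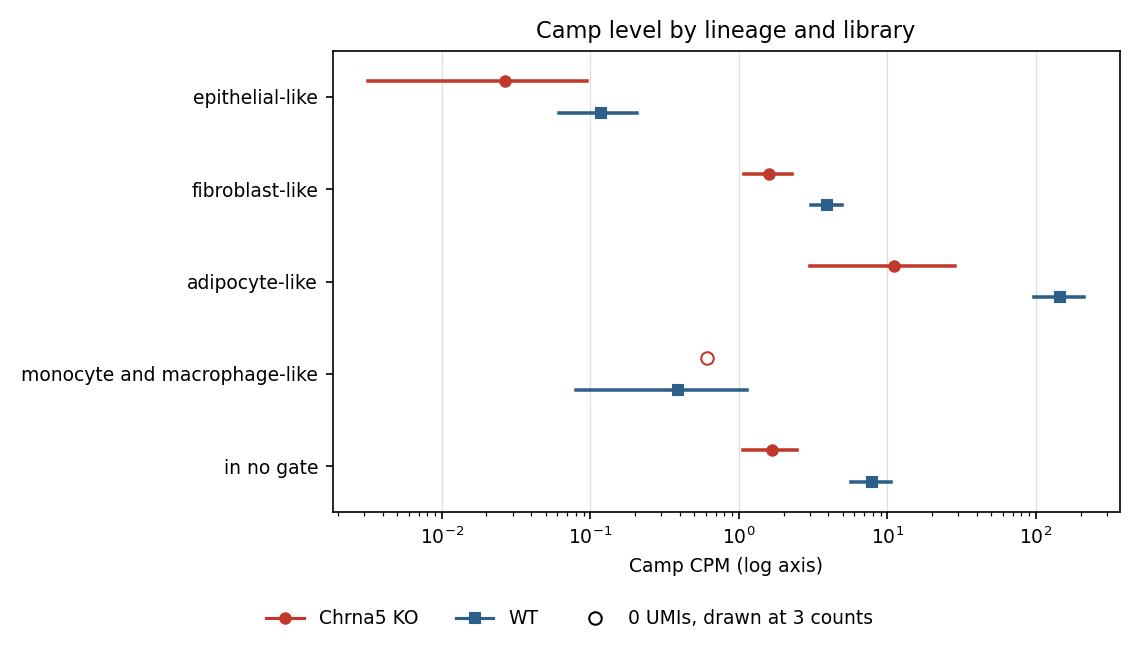
Camp level in CPM (horizontal log axis) by lineage (rows) in KO (red circles) and WT (blue squares), with 95% Poisson counting intervals; the open circle is a group with 0 UMIs, drawn at 3 counts. Of the groups with a Camp UMI, epithelial-like cells lie lowest, at 0.0265 CPM in KO and 0.119 CPM in WT, and adipocyte-like cells highest, at 11.1 CPM and 146 CPM.

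The genes around these peptides were read from 7 lists over epithelial-like cells, in genes with at least 20 UMIs and against the background of 4.36% lower and 7.10% higher. Of 18 inducing cytokine genes, 6 were at least 2-fold lower in KO and 1 at least 2-fold higher, with a median log2 ratio of -0.64. That list also holds Il1f5, which encodes the interleukin-36 receptor antagonist and is no inducer, with a ratio of 0.586. The interleukin-36 gene Il1f9 had 28.6 CPM in KO and 92.5 CPM in WT. The interleukin-12 subunit gene Il12b had 1 UMI in KO and 47 in WT, and Il20 had 23 UMIs in KO and 13 in WT. Il1f6 and Il1a of the interleukin-1 family and Il23a, named above for their patterns, had ratios of 0.145, 0.447 and 0.229. Those patterns span both libraries, so these ratios are not separate from the likeness. Il17a had under 20 UMIs in epithelial-like cells. Over all cells used, where 3.45% of genes were at least 2-fold lower and 11.2% at least 2-fold higher, 8 of the 20 cytokine genes were lower and 2 higher, with a median log2 ratio of -0.62. There Il17a had 322 UMIs in KO and 88 in WT, a ratio of 4.25 (3.35 to 5.44), and Ifng a ratio of 2.05 (1.48 to 2.87), while Il22 had a ratio of 0.499 (0.428 to 0.581) and Il17f a ratio of 0.792 (0.657 to 0.952). The T and NK gate held 128 KO and 47 WT cells, and its part in these ratios was not tested. Of 19 receptor and adaptor genes for interleukin-17, interleukin-22 and interleukin-36, 0 were past 2-fold either way, with a median log2 ratio of 0.26. Nfkbia, an inhibitor of NF-kB, had 1656 CPM in KO and 1136 CPM in WT, Il1r1 a ratio of 0.845 and Il20ra a ratio of 1.78 (0.689 to 4.78).

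The other lists touch the peptides' partners and processing. Of 26 other epithelial antimicrobial peptide genes, 9 were at least 2-fold lower in KO and 1 at least 2-fold higher, with a median log2 ratio of -0.40: S100a8, which encodes a subunit of the metal-binding calprotectin, had 271 CPM in KO and 6855 CPM in WT, and Hamp, which encodes hepcidin, 16.5 CPM in KO and 6.63 CPM in WT. Of 13 genes for cathelicidin processing and secretion, 4 were at least 2-fold lower and 0 higher, with a median of 0.18. Klk5, whose protease cuts the human cathelicidin, had 49.9 CPM in KO and 25.8 CPM in WT, Klk7 had 585 CPM and 452 CPM, and the protease inhibitor gene Spink12 0.238 CPM and 5.56 CPM. Over all cells used, 5 of 14 processing genes were at least 2-fold lower and 0 higher, with a median of -0.57. The background there was 3.45% lower and 11.2% higher. In epithelial-like cells, 0 of 18 vitamin D and cathelicidin regulation genes were at least 2-fold lower and 2 higher, with a median of 0.35. There, Cebpb had 923 CPM in KO and 704 CPM in WT, Cebpe 32 UMIs and 14 UMIs, and Hif1a a ratio of 0.761. Of 10 genes for receptors of these peptides, 0 were lower and 1 higher, with a median of -0.11: Egfr had 69.9 CPM in KO and 84.4 CPM in WT, Cxcr4 2.21 CPM and 1.05 CPM, and Fpr2 10 UMIs and 22 UMIs. Over all cells used 3 of 13 of these receptor genes were at least 2-fold lower and 3 higher, with a median of 0.33. There Ccr6 had 37 UMIs in KO and 13 in WT, a ratio of 3.31 (1.72 to 6.78), and Fpr1 2 UMIs in KO and 63 in WT.

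Neutrophil granule genes were measured because Camp is one of that class in blood. In epithelial-like cells 7 of 11 were at least 2-fold lower in KO and 0 higher, with a median log2 ratio of -1.58 when Chil3, with 0 UMIs in KO and 407 in WT, is set at 3 counts. Over all cells used 8 of 15 were at least 2-fold lower, against 3.45% of all genes there, and 0 higher, against 11.2%, with a median of -1.21. S100a8, S100a9, Lcn2, Ltf and Lyz2 are also on the antimicrobial list above, and Ltf had too few UMIs to enter these counts. As no cell passed the neutrophil gate, the counts are not read as neutrophil content. The most abundant of these genes in epithelial-like cells was S100a8, given above. In epithelial-like cells the 4 genes within 2-fold were Mpo, Prtn3, Mmp25 and Padi4, with ratios of 0.954, 1.27, 1.05 and 1.92. Mmp25 had a ratio of 1.34 over all cells used.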

How the data were processed

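Each deposited matrix held raw UMI counts, whole numbers for every gene in every barcode, and no normalized values, per the file headers. Per the submitters' processing notes the tools were Cell Ranger 3.0.2 and Seurat 3.0 on mm10; the header of the matrices gives 3.1.0. Chemistry and barcode filter are not given in the sources used here. The lowest barcode total was 500 UMIs.

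The members and lists were chosen with earlier results of these data known. Cells with at least 200 genes, at most 10% mitochondrial UMIs and at least 3000 UMIs were used. Epithelial-like cells had at least 60 UMIs of 20 epithelial markers per 10000 and under 30 of each of 10 other lineages. Types were the marker list with the highest mean z score (at least 0.2, ahead by at least 0.1), and suprabasal-like cells were split at 5 Krt79 UMIs per 10000; these thresholds were set after the data were seen. The upper follicle-like type is thus gated in part on Krt79. Doublets stayed in: Scrublet (scanpy 1.11.5) marked 107 KO cells (1.35%) and 120 WT cells (1.46%), and an alternative removed 759 KO and 1022 WT cells of high score or depth.

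Counts were summed over cells. Levels carry exact Poisson intervals, shares exact (Clopper-Pearson) binomial intervals, and ratios of KO over WT exact binomial intervals conditional on the summed count, all at 95%; a count of 0 was set at 3 counts for limits. Intervals and floors cover counting error only. Ratios are called at 2-fold among genes with at least 20 UMIs. Thinning drew 3000 UMIs from each cell. All 6 genes were named, any other Defb gene with at least 20 UMIs in a library, the 5 genes most like each member with at least 200 epithelial UMIs, and from each of 7 lists the gene of highest level and those of lowest and highest ratio. Gene positions and coding sequences come from GENCODE M21 on mm10, whose release may differ from the submitters'. The ratio step was run on simulated counts for epithelial-like cells, where the interval covered the simulated ratio in 95.6% of 15224 genes left unchanged. Of 100 genes doubled and 100 halved, 97% and 89% were found in the right direction. The summed counts were drawn from the Poisson model on which the interval rests. This checks the calculation only and cannot show how the interval behaves when single cells hold many UMIs of a gene. Alternatives changed the scale, cell filter, gate, doublets, UMI minimum, depth and type weights. Leaving out the cells with most UMIs was added after seeing the data. The number of cells left out was the same in each library, so it was a larger share of the smaller group. Python 3.11.15, numpy 2.4.6, scipy 1.17.1, pandas 2.3.3 and matplotlib 3.10.9 were used.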

Additional observations from a re-analysis of the deposited data

Results flagged for a closer look

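Defb1 had a KO over WT ratio of 0.851 in sebaceous-like cells and of 4.71 in outer follicle-like cells, on opposite sides of 1. The difference was not tested, since each genotype has 1 library, and in sebaceous-like cells the thinned share of cells ran against the level.

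Defb6 had a ratio of 0.362 in sebaceous-like cells and of 1.24 in outer follicle-like cells, also on opposite sides of 1 and also not tested. The outer follicle-like share of cells with Defb6 lay close to that of fibroblast-like cells, and its ratio was 0.919 without the 10 cells with most Defb6 in each library.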

How the results depend on the processing

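Over all epithelial-like cells, Defb1 stayed above 1 and Defb3, Defb4, Defb14 and Camp stayed below 1 in each alternative that gave a value, while Defb6 changed side. With each type weighted equally the Defb6 ratio was 0.906, that of Defb1 1.86 and that of Defb14 0.401. With each cell thinned the ratio was 2.15 for Defb1, 0.326 for Defb3, 0.181 for Defb4, 1.41 for Defb6 and 0.707 for Defb14. With doublets and very deep cells removed it was 0.272 for Defb3, 1.42 for Defb6 and 0.559 for Defb14. On a median-ratio scale it was 1.95 for Defb1 and 1.28 for Defb6, with a stricter cell filter 2.12 and 1.39, and with a stricter gate 2.17 and 1.44. Defb6 had 1.36 with no cell filter, 1.36 with a lower UMI minimum and 1.37 after subtraction of the fibroblast level. Without the top cell Defb3 had 0.217, and without the top 10 cells Defb3 had 0.215 and Defb4 0.148. In the upper follicle-like type Defb6 changed side, to 1.05 without doublets and deep cells, 1.09 with marker scores within each library and 1.11 when thinned; the cause was not tested. Defb3 there had 0.259 without doublets and deep cells. Camp gave no value when thinned (0 KO and 2 WT UMIs), without its top 10 cells or after subtraction of the fibroblast level, and Defb4 none in the upper follicle-like type without its top 10 cells (0 KO and 8 WT UMIs). No paired analysis was possible because each genotype has 1 library. Mice, genotype and library cannot be told apart, and depth limits Camp in the epithelium and Defb4 in KO.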
